A study of Mus musculus with 2 samples.

Results

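Mir21a and Mir22 are 2 microRNA genes with roles described in growth and scarring of the stressed heart. They were taken by name: the rows of the deposited count tables whose gene symbol in release M21 of the GENCODE annotation is Mir21a (ENSMUSG00000065455.1) or Mir22 (ENSMUSG00000065529.1), which are 2 of 2202 microRNA genes. Both were counted in both libraries. The libraries held short RNA in the microRNA size range from the hearts of female mice of the hybrid strain B6CASTF1/J, 2 months old, which carry 1 genome copy from C57BL/6J and 1 from CAST/EiJ. The labels give a single group of 2 biological replicates, with no treatment, no disease model and no other age, sex or strain. The samples have different female numbers and a common donor label, and were taken as separate animals. What can be read from them is the level of both genes in the adult heart without induced stress and how far 2 libraries differed; remodelling itself was not measured.

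A microRNA is cut from a hairpin precursor and binds messenger RNAs mainly through its seed, the short stretch near its 5′ end, which lowers their translation or stability. The product of Mir21a is abundant in fibroblasts and in many immune cells, is known to rise in failing hearts, and represses Spry1, an inhibitor of growth signalling. The product of Mir22 is enriched in heart and skeletal muscle; in mice it is needed for full hypertrophic growth of the heart under stress, and Hdac4 and Sirt1 are among its described targets. Both are therefore studied as regulators of cardiac hypertrophy and fibrosis, Mir21a mostly in fibroblasts and Mir22 mostly in cardiomyocytes.

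The mature sequences are shown because they define which targets each gene can reach and how readily its reads can be told from those of related genes. They are RefSeq sequences (GRCm38.p6), written 5′ to 3′, and capitals mark the seed, bases 2 to 8.
mmu-miR-21a-5p: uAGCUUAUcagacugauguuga
mmu-miR-21a-3p: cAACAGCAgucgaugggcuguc
mmu-miR-22-3p: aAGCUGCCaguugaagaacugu
mmu-miR-22-5p: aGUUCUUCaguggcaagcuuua
mmu-miR-21b: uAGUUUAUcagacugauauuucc
mmu-miR-21c: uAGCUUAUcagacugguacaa
The tables count reads per gene, so the 5p and 3p arms of a hairpin cannot be separated. The seeds of miR-21a-5p and miR-22-3p begin with the same bases but are different seeds. Among the mature sequences of the RefSeq table, miR-22-3p, miR-22-5p and miR-21a-3p had seeds found in no other gene, and miR-21a-5p shared its seed with miR-21c alone.

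The related genes Mir21b and Mir21c contributed nothing to the counts. Counting positions from 1 at the 5′ end of miR-21a-5p, with its base first, miR-21b differs at C4U within the seed and at G18A, G21U and A22C outside it. The mature miR-21c keeps the seed and differs at A16G, G18A, U19C, U20A and G21A. Mir21b and Mir21c had 0 counts in both libraries, which allows a level of up to 1.08 CPM in replicate 2 and 1.24 CPM in replicate 1. CPM are counts per 1000000 own-strand counts over microRNA genes; the limits are 3 counts and cover counting error only. The longest exact stretch that the Mir21a hairpin shares with a hairpin at another locus is 15 bases, with Mir21c, and for Mir22 it is 13 bases. Neither member shares a stretch of 20 bases, the length used here to mark genes whose reads may map to several places and so go uncounted.

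The members lie on chromosome 11 in mm10, 11.12 Mb apart and on opposite strands. Mir22 (75463716 to 75463810, plus strand) lies in exon 2 of both transcripts of its noncoding host Mir22hg, and in exon 2 of a noncoding transcript of Tlcd2, a gene on the same strand. Mir21a (86584067 to 86584158, minus strand) lies in exon 12 of Vmp1, a gene of autophagosome formation, within the 3′ UTR of transcript Vmp1-201. No other annotated microRNA gene lies within 10 kb of either, so neither belongs to a cluster whose partners could be compared. The hairpins are 92 bases long for Mir21a and 95 for Mir22. By RNAfold the predicted minimum free energy was -46.2 kcal/mol for Mir21a and -41.9 kcal/mol for Mir22, or -0.502 per base for Mir21a and -0.441 for Mir22, against a median of -0.406 over 1005 RefSeq mouse hairpins. The Mir21a hairpin was predicted to have 82.6% of its bases paired and the Mir22 hairpin 75.8%, against a median of 69.0%.

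By read counts Mir22 was the more abundant member in both libraries. It had 53294 counts in replicate 2 and 107548 in replicate 1. These were 1.92% of the own-strand counts of replicate 2 (95% exact Clopper-Pearson interval 1.91 to 1.94) and 4.44% of those of replicate 1 (4.41 to 4.46). By counted level it ranked 14th of all genes in replicate 2 and 8th in replicate 1. Ranks here and below leave out reads mapped to several places, 42.7% of reads in replicate 2 and 49.5% in replicate 1. Genes with near copies may therefore rank too low, and the order of levels in the heart itself may differ. The mean of Mir22 was 31799 ± 17764 CPM (SD, n = 2), with 19238 CPM in replicate 2 and 44359.9 CPM in replicate 1.

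Mir21a was lower in level and varied more. It had 5013 counts in replicate 2 and 24289 in replicate 1. Mir21a thus took 0.181% of the counted microRNA reads of replicate 2 (exact interval 0.176 to 0.186), against 1.00% for replicate 1 (0.989 to 1.01). It ranked 50th in replicate 2 and 20th in replicate 1. Its mean of 5914 ± 5805 CPM (SD, n = 2) has an SD of 98.2% of the mean, against 55.9% for Mir22. All reads of both members were in the column taken as the genes' own strand, with 0 opposite-strand counts in either library. That column was recognized by holding nearly all gene counts, so this is no separate check of strand. A read of this assay covers a whole mature microRNA, so levels were compared between genes without a correction for length. How evenly different sequences were captured and amplified was not measured. Levels, ranks and ratios between genes therefore compare read counts, not numbers of molecules.

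**Figure D1:**
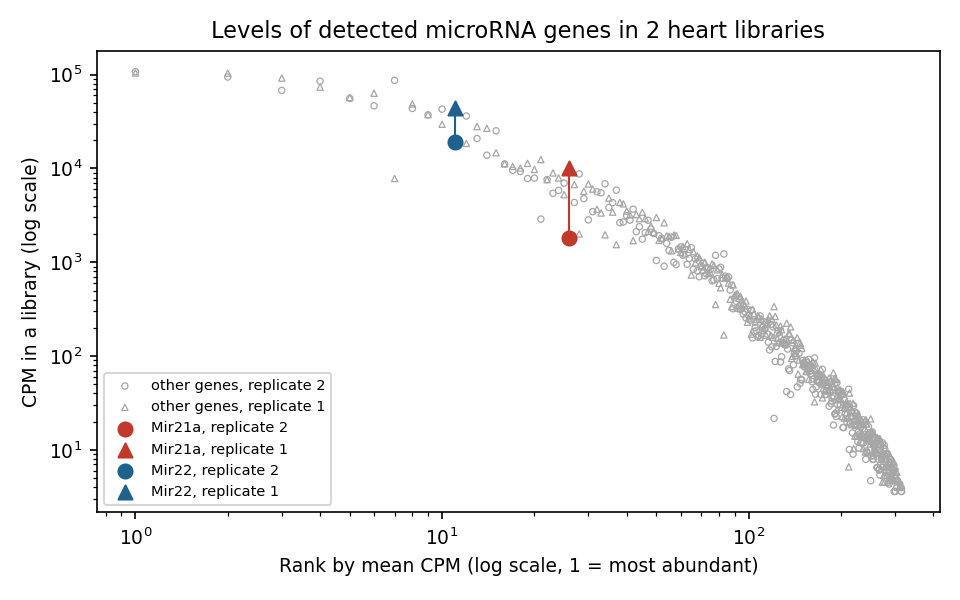
Level of each of the 306 detected microRNA genes in CPM (log scale) against its rank by mean CPM (log scale), with circles for replicate 2 and triangles for replicate 1. Mir22, at rank 11, spans 19238 to 44359.9 CPM and Mir21a, at rank 26, spans 1809.6 to 10018 CPM, with replicate 2 the lower point of both.

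The spread between the libraries leaves the place of each member in the order of levels loose. Around Mir22 stood Mir143 of smooth muscle, Mir23b and Mir23a above it and Mir99a, Mir139 and Mir26b below it. The range over the 2 libraries of each of these 6 genes overlapped that of Mir22. Around Mir21a stood Mir151, Mirlet7f-2 and Mir652 above it and Mirlet7e, Mir99b and Mir30e below it, and again all 6 ranges overlapped its own. Mir99b had the opposite pattern to Mir21a, with 8750 CPM in replicate 2 and 2003 CPM in replicate 1. Mir23a, Mir23b and Mirlet7f-2 share 20 bases with another hairpin, so their levels, and their place beside the members, are uncertain.

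Both members were lower in replicate 2 than in replicate 1, and Mir21a by more. Mir21a was 5.54-fold lower (exact interval 5.37 to 5.71), a log2 ratio of -2.47, and Mir22 was 2.31-fold lower (2.28 to 2.33), a log2 ratio of -1.21. Both were called by a two-sided exact binomial test, in which library totals set the expected split of a gene's counts, adjusted by Benjamini-Hochberg over all 306 genes with at least 10 counts in both libraries, at 0.05 and at least 1.5-fold. Their p-values fell below the smallest number the computation can hold. The test compares 2 libraries and no conditions. It measures counting error alone, not the spread between animals, and the difference may be partly technical.

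Differences of this kind were common, so the call by itself sets neither member apart. Of the 306 genes 36.6% were called, 25.5% as lower in replicate 2 and 11.1% as higher, and the median log2 ratio was -0.19. With TMM factors the median was -0.02 and the calls split into 49 lower and 47 higher, against 78 lower and 34 higher with library totals. Relative to the median gene the log2 ratio was -2.28 for Mir21a and -1.01 for Mir22. Ordered from the most negative ratio, Mir21a was the second and Mir22 the 27th of the 306 genes. Among the 26 genes with a mean level at or above that of Mir21a, 5 were called lower and 3 higher, and Mir21a had the most negative ratio. Mir22 had the third most negative ratio of these 26 genes, after Mir21a and Mir140 (-2.11).

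**Figure D2:**
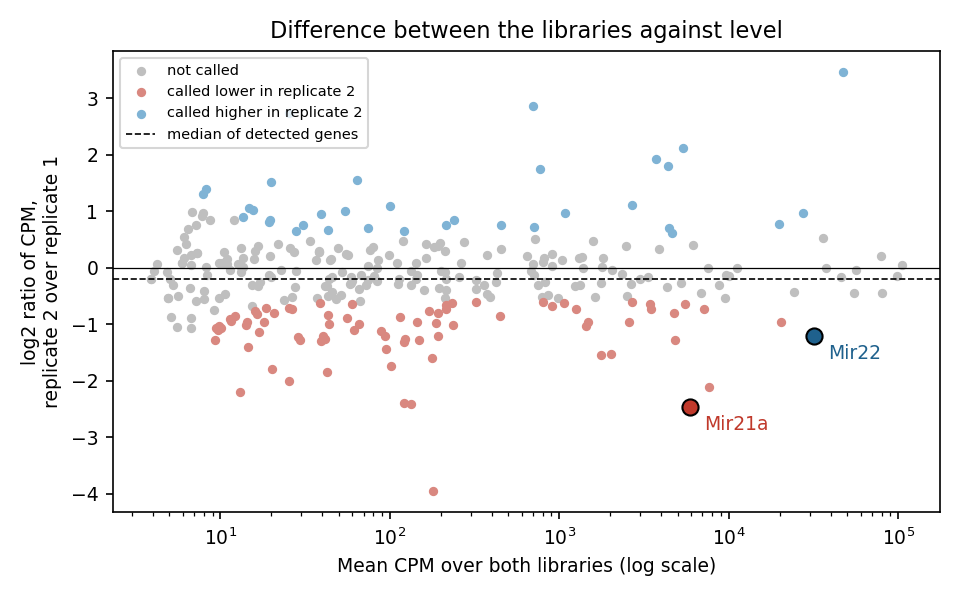
Log2 ratio of CPM in replicate 2 over replicate 1 against mean CPM (log scale) for the 306 detected genes, with calls coloured, a solid line at 0 and a dashed line at the median gene. Mir21a lies at -2.47 and Mir22 at -1.21, both toward the right edge, where abundant genes with ratios this low are few.

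The balance between the members also differed, and this comparison does not depend on how the libraries are scaled. In replicate 2 there were 10.6 Mir22 counts for each Mir21a count (exact interval 10.3 to 10.9), against 4.43 in replicate 1 (4.37 to 4.49). Mir21a thus made up 8.60% of the counts of both genes together in replicate 2 and 18.4% in replicate 1. The odds ratio of replicate 2 over replicate 1 was 2.40 (95% interval of Fisher's exact test 2.32 to 2.48), a log2 value of 1.26. The two-sided p of that test again fell below the smallest number that can be held. Like the binomial test, Fisher's test measures counting error alone, not the spread between animals. Mir22 exceeded Mir21a in read counts in both libraries.

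The genes with the pattern most like each member were found by the absolute difference between log2 ratios, over 2 libraries, among the 225 detected genes with at least 100 counts in all. Nearest to Mir21a came Mir487b of the imprinted Dlk1-Dio3 cluster (difference 0.05), the myeloid Mir223 (0.08), Mir140 (0.36), Mir201 (0.47) and Mir3068 (0.62). Mir140 had the most counts of these, with 7998 in replicate 2 and 30135 in replicate 1. Mir223 had 108 counts in replicate 2 and 496 in replicate 1. Nearest to Mir22 came Mir340, Mir421, Mir148b, the liver microRNA Mir122 and Mir148a, all within 0.06 and all far lower in level, the most abundant being Mir421 with 116 CPM in replicate 2 and 269 CPM in replicate 1. Likeness over 2 libraries amounts to a similar ratio and carries no more than that. Mir487b shares 20 bases with another hairpin, so its ratio is uncertain.

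Both members belong to a list of 17 genes reported to promote hypertrophy or fibrosis, which summed to 81264 CPM in replicate 2 and 102790.0 CPM in replicate 1. Mir22 made up 23.7% of the list's counts in replicate 2 and 43.2% in replicate 1. Mir21a made up 2.23% in replicate 2 and 9.75% in replicate 1. The list had 15 detected genes, of which 7 were called lower in replicate 2, 1 higher and 7 neither, with a median log2 ratio of -0.46. Without the members, 5 of 13 were lower and 1 was higher, with a median log2 ratio of -0.20, against 25.5% called lower and a median of -0.19 over all detected genes.

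The other abundant genes of that list did not all follow the members. Mir23a, reported to drive hypertrophic growth and the list's most abundant gene in replicate 2, had 42856 CPM in replicate 2 and 29592 CPM in replicate 1, a log2 ratio of 0.53 that was under 1.5-fold and became a call of higher with TMM or DESeq2 factors. Mir27b was called lower, with 2829 CPM in replicate 2 and 6826 CPM in replicate 1. Both share 20 bases with another hairpin. Mir208a, the microRNA of the alpha myosin heavy chain gene, was the gene called higher, with 5865 CPM in replicate 2 and 1542 CPM in replicate 1. Mir195a, of the family of miR-15 and miR-16 and named after its values were seen, came next to Mir21a with a log2 ratio of -1.54.

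The second list held 23 genes reported to restrain hypertrophy or fibrosis. Of its 16 detected genes 9 were called lower in replicate 2, 1 higher and 6 neither, against 25.5% called lower over all 306 genes, and its median log2 ratio was -0.66, against -0.19. With TMM factors 6 of the 16 were lower and 1 higher, against 16.0% called lower over all genes. Its 4 most abundant genes were Mir378a, Mir26b, Mir30a and Mir29a. Of these Mir26b was called lower, by 1.93-fold, with 13830.0 CPM in replicate 2 against 26745 CPM in replicate 1. Mir378a, which shares 20 bases with another hairpin, had 94209 CPM in replicate 2 against 103580.0 CPM in replicate 1, and Mir30a had 7892 CPM in replicate 2 against 9753 CPM in replicate 1; neither was called. Mir29a, which represses collagen genes, had 7600.3 CPM in replicate 2 and 7591 CPM in replicate 1, while Mir21a, studied in the same process, had the second most negative ratio of the 306 genes. Among the detected genes of this list 12 share 20 bases with another hairpin, so their ratios are uncertain.

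**Figure D3:**
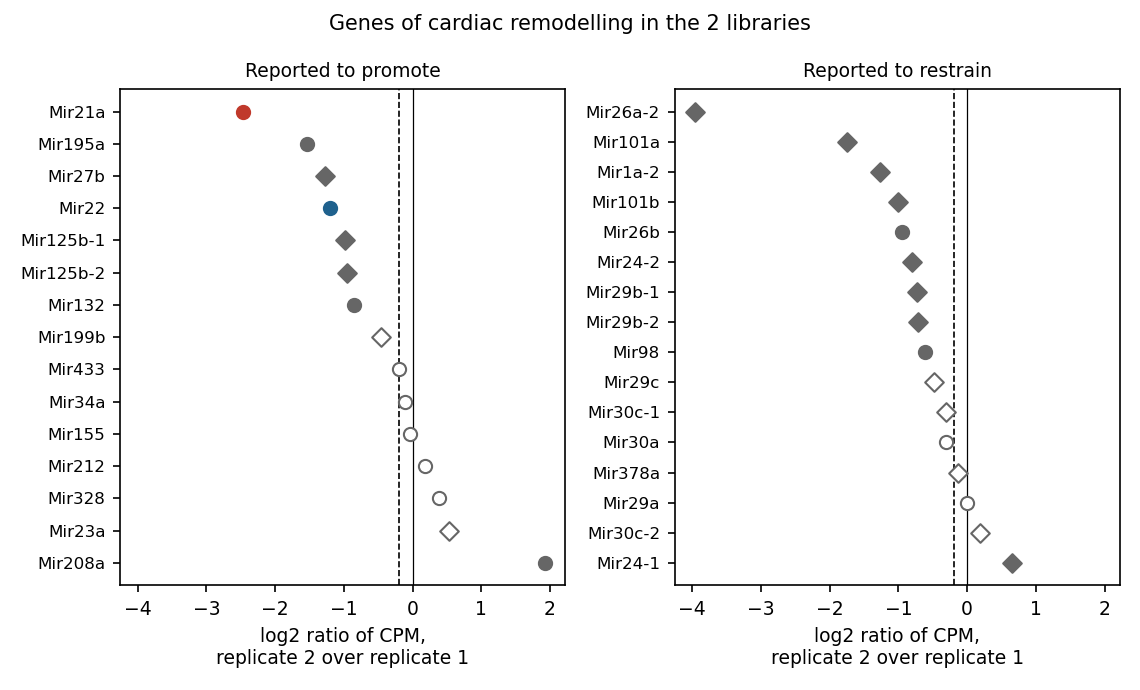
Log2 ratio of CPM in replicate 2 over replicate 1 for the detected genes of the lists reported to promote (left, 15 genes) and to restrain (right, 16 genes) cardiac hypertrophy or fibrosis. Filled symbols were called by the exact binomial test at 1.5-fold, open ones were not, diamonds share 20 bases with another hairpin, the solid line is 0 and the dashed line the median gene; Mir21a (red) is the lowest of the left panel and Mir22 (blue) the fourth lowest.

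Markers of several cell types also differed between the libraries, some in the direction of the members and others in the opposite direction. In tissue, fewer cells of a type and less RNA per cell cannot be told apart. The fibroblast list, taken without Mir21a, summed to 784 CPM in replicate 2 and 1310.4 CPM in replicate 1. Of its 5 genes 3 were detected, 2 of them lower: Mir152 with 70.0 CPM in replicate 2 and 174 CPM in replicate 1, and Mir214 with 701 CPM in replicate 2 and 1122 CPM in replicate 1. Mir214 lost its call with TMM or DESeq2 factors, which left 1 of 3 lower. Over all 306 genes 25.5% were called lower, or 16.0% with TMM factors. Mir199b had 25 counts in replicate 2 and 30 in replicate 1 and was not called (exact binomial test, adjusted p = 0.361), and Mir199a-1 was at 0 in replicate 1. The 3 miR-199 genes share 20 bases with another hairpin, so the list rests mainly on Mir214 and Mir152.

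Summed immune markers were lower in replicate 2 and summed red cell markers higher. The leukocyte list summed to 6111 CPM in replicate 2 and 7963 CPM in replicate 1. Of its 7 genes 6 were detected and 3 were lower, namely Mir223, Mir142 and Mir146. Mir146 shares 20 bases with another hairpin, so its ratio is uncertain. Only Mir223 kept its call with TMM or DESeq2 factors. The shares over all 306 genes were 25.5% lower and 11.1% higher, or 16.0% lower with TMM factors. Mir223 had 39.0 CPM in replicate 2 and 205 CPM in replicate 1, close to the ratio of Mir21a. Mir150, Mir155 and Mir342 were not called, and Mir142b was at 0 in both libraries. The erythroid list summed to 95669 CPM in replicate 2 and 11559 CPM in replicate 1, with Mir451a and Mir144 higher in replicate 2 and Mir486 and Mir3107 not called. With Mir451a left out of the library totals the log2 ratio was -2.35 for Mir21a and -1.09 for Mir22.

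The cardiac muscle list summed to 8577 CPM in replicate 2 and 6048 CPM in replicate 1, because Mir208a was higher, although its other 3 detected genes, Mir208b, Mir499 and Mir1a-2, were lower; none of its 7 genes was at 0. Mir22, which is enriched in muscle, was thus lower in replicate 2 alongside Mir499, which had 2641 CPM in replicate 2 against 4354 CPM in replicate 1, and opposite to Mir208a. With TMM or DESeq2 factors Mir499 differed by less than 1.5-fold, which left 2 of 4 detected genes lower. Among the list's 7 genes, 4 (Mir1a-1, Mir1a-2, Mir133a-1 and Mir133a-2) share 20 bases with another hairpin. Their levels may be too low and the ratio of Mir1a-2 is uncertain, so the sum rests mainly on Mir208a and Mir499. For this list and the next 2, the shares over all 306 genes were 25.5% lower and 11.1% higher, or 16.0% lower with TMM factors. The endothelium list summed to 88162 CPM in replicate 2, against 77006 CPM in replicate 1, with Mir222 lower and Mir126a and Mir221 not called. The smooth muscle and pericyte list summed to 44521 CPM in replicate 2 and 50667 CPM in replicate 1, with Mir145a lower and Mir143 not called. The part of these shifts in the differences of Mir21a and Mir22 was not tested.

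**Figure D4:**
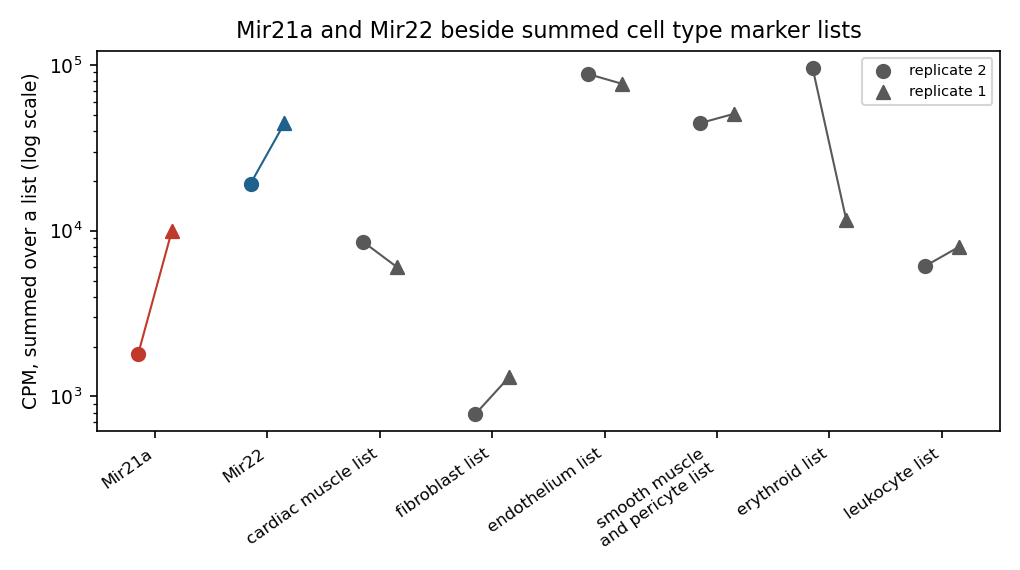
CPM of Mir21a and Mir22 and summed CPM of 6 cell type marker lists (log scale), with circles for replicate 2 and triangles for replicate 1 joined by a line. Mir21a and Mir22 are lower in replicate 2, as are the fibroblast, smooth muscle and leukocyte sums, while the erythroid sum is higher, with 95669 CPM against 11559 CPM in replicate 1. Sums may miss reads of genes that share 20 bases with another hairpin. These are 4 of 7 genes in the cardiac muscle list, 3 of 5 in the fibroblast list and 1 of 7 in the leukocyte list.

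The libraries held 7995058 reads in replicate 2 and 8069273 in replicate 1, with 2770301 on the own strand of a microRNA gene in replicate 2 and 2424441 in replicate 1. Of all reads, Mir22 took 0.667% in replicate 2 and 1.33% in replicate 1, and Mir21a took 0.0627% in replicate 2 and 0.301% in replicate 1. Intervals and limits cover the counting error of reads only, not the spread between animals or libraries. The tables carry no molecular identifiers, so copies of a molecule cannot be told from separate molecules.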

How the data were processed

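The deposited values are raw read counts per microRNA gene, 1 table per library, with no normalization. Per the file headers and labels they rest on assembly mm10 and GENCODE release M21; aligner and counter: not given in the sources used here. Own-strand counts were used, and their column was recognized from the values because it held nearly all gene counts. Rows that name no gene (65.3% of reads in replicate 2, 70.0% in replicate 1) were left out of the tests and of totals, except where all reads are named as the total. All 2202 identifiers matched M21, as did all 68 list entries, 1 of them (Mir146a, listed as Mir146) through an older symbol.

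Counts were scaled to CPM of the library total. Genes with at least 10 counts in both libraries were tested for replicate 2 over replicate 1 with an exact binomial test and Benjamini-Hochberg adjustment. The test was checked on simulated data with counting error alone, the spread that it assumes. That check cannot show how the test behaves with the larger spread of these libraries. A chi-square statistic of 1138 per degree of freedom showed that the tables are not copies. Hairpins were folded with RNAfold 2.7.2. Python 3.11.15, scipy 1.17.1, R 4.3.3, edgeR 4.0.16 (TMM) and DESeq2 1.42.0 (size factors) were used.

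The members and lists were chosen with earlier results of these data known. Besides the members, the text names the 3 genes next above and below each in level, the 5 nearest in log2 ratio, genes of the same seed or family, all detected genes of lists of at most 7 genes and the 4 most abundant of longer lists. Alternatives were reads on either strand, other scalings, filters and denominators, a 2-fold threshold, genes without shared bases, and each replicate alone.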

Additional observations from a re-analysis of the deposited data

Results flagged for a closer look

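Reads with several mapping places, assigned to no gene, numbered 3410568 in replicate 2 and 3992614 in replicate 1, as totals over the whole library. Reads that mapped once outside microRNA genes numbered 412466 in replicate 2 and 302782 in replicate 1. Both kinds of reads enter here only through totals and shares of all reads. Whether any of these reads came from Mir21a or Mir22 was not tested.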

How the results depend on the processing

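Mir21a and Mir22 kept their direction and their call in each scaling, strand column and count filter tried. Count filters leave a member's counts and the library totals unchanged, so its ratio could not move with them. The choice of strand column left the members' counts unchanged and altered only the totals. Over those settings the log2 ratio of replicate 2 over replicate 1 ran from -2.47 to -2.28 for Mir21a and from -1.21 to -1.01 for Mir22. That range leaves out the denominator of all reads, for which only the mean level was computed. The balance of the members could not change with reads on either strand, because neither member had opposite-strand counts. With all reads of the table as denominator, unmapped reads included, the mean level of Mir21a was 1819 CPM and that of Mir22 9997 CPM, since the denominator was larger. From 1 library alone, the level of Mir21a ran from 1809.6 to 10018 CPM and that of Mir22 from 19238 to 44359.9 CPM. At a 2-fold threshold 55 genes in place of 112 were called, 39 of all 306 as lower. In that setting 4 of 15 genes were lower in the promoting list and 4 of 16 in the restraining list. Without genes that share 20 bases, fewer genes were tested. Then 4 of 10 were lower in the promoting list and 2 of 4 in the restraining list, against 56 of 236 overall. With reads on either strand 4 of 12 were lower in the restraining list, against 48 of 282 over all genes. The cause was not tested. The split of calls moved with scaling, with 78 lower and 34 higher on library totals, 49 lower and 47 higher with TMM, and 48 lower and 48 higher with DESeq2 factors. No paired analysis was possible because the labels give 1 group.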
